A study of Mus musculus with 10 samples.

Results

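The UDP-glucuronosyltransferase, glutathione S-transferase and sulfotransferase genes were followed at postnatal day 21 in the whole kidneys of 10 mice. Members were all rows of the authors' deposited tables whose gene name begins with Ugt1, Ugt2 or Ugt3, with Gst and a letter, or with Sult and a digit. The rule found 60 of 30431 rows, 20 Ugt, 22 Gst and 18 Sult genes. The kidneys came from 3 mice with the genotype Pkhd1Cre; Pkd2 F/F; miR-21null (DM), from 3 mice with the genotype Pkhd1Cre; Pkd2 F/F (SM) and from 4 wild-type mice (WT). DM and SM therefore share the Cre-driven deletion of Pkd2, the gene of the cyst-preventing channel polycystin-2, and DM mice also lack miR-21. The Pkhd1 promoter that drives the Cre is known to act mainly in the collecting duct, whereas the RNA is that of the whole organ. The sex of the mice is not given in the labels.

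These 3 enzyme groups carry out the conjugation step of detoxification. UDP-glucuronosyltransferases (UGT) in the endoplasmic reticulum add glucuronic acid from UDP-glucuronate to bilirubin, steroids, bile acids and drugs. Glutathione S-transferases (GST) join glutathione to electrophiles such as lipid peroxidation products, and cytosolic sulfotransferases (SULT) transfer sulfate from its activated carrier PAPS to phenols, catecholamines and steroids. In the kidney these enzymes are known chiefly from the proximal tubule, which also exports the conjugates and takes glutathione conjugates apart into mercapturates.

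The tables hold no value per mouse, so each group is given by 1 level in CPM (counts scaled to library size), computed from the deposited average and fold changes, and the spread within a group is carried only by a standard error (SE) implied by the deposited test, namely the size of the log2 fold change over the root of its likelihood ratio. A gene is called where the deposited adjusted p of edgeR's likelihood ratio test is below 0.05. Low averages lay on steps of whole counts that put the mean library at 3.89e+07 counts, and 34 of the 60 genes averaged at least 1 CPM. The targeted gene Pkd2 was not called: it stood at 170 CPM in DM, 180 CPM in SM and 239 CPM in WT kidneys, with adjusted p of 0.0838 for DM against WT and 0.179 for SM against WT by the authors' deposited tables. Which exons are deleted is not given in the labels, and the tables give Pkd2 as a single row with no value per exon, which makes this no full check of the genotype labels. In bulk tissue, fewer cells of a type and less RNA per cell cannot be told apart, which bears on every level that follows.

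Transferase genes were more often called lower than higher in the kidneys with Pkd2 deleted. In DM against WT, 13 of 60 members were called lower (21.7%), where 5.92% of all rows were, and 4 were called higher (6.67%), where 7.55% of all rows were. In SM against WT, 14 members were called lower (23.3%) against 6.09% of all rows, and 4 were called higher (6.67%) against 7.87% of all rows. Among the 34 members averaging at least 1 CPM, 8 were lower (23.5%) and 1 higher (2.94%) in DM against WT, where 8.53% and 11.3% of the 15135 rows of that level were. In SM against WT, 10 were lower (29.4%) and 1 higher (2.94%), where 9.47% and 12.2% of those rows were. Ugt2b38 and Gsto2 reached that level only through WT, and both lay below 1 CPM in DM and in SM (Gsto2 at 0.967 CPM in DM, 0.759 CPM in SM and 1.79 CPM in WT). The filter thus let them in through the group they are compared with. Both are among the genes called lower in SM against WT, and Ugt2b38 also among those called lower in DM. The share called lower thus exceeded the share among all rows in each comparison, and the share called higher was close to or below it. The median log2 fold change of these 34 genes was -0.44 in DM against WT and -0.44 in SM against WT, while the median of all rows of that level was 0.002 in DM against WT and -0.01 in SM against WT. Both comparisons use the same 4 WT kidneys, so their likeness is no independent support.

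**Figure D1:**
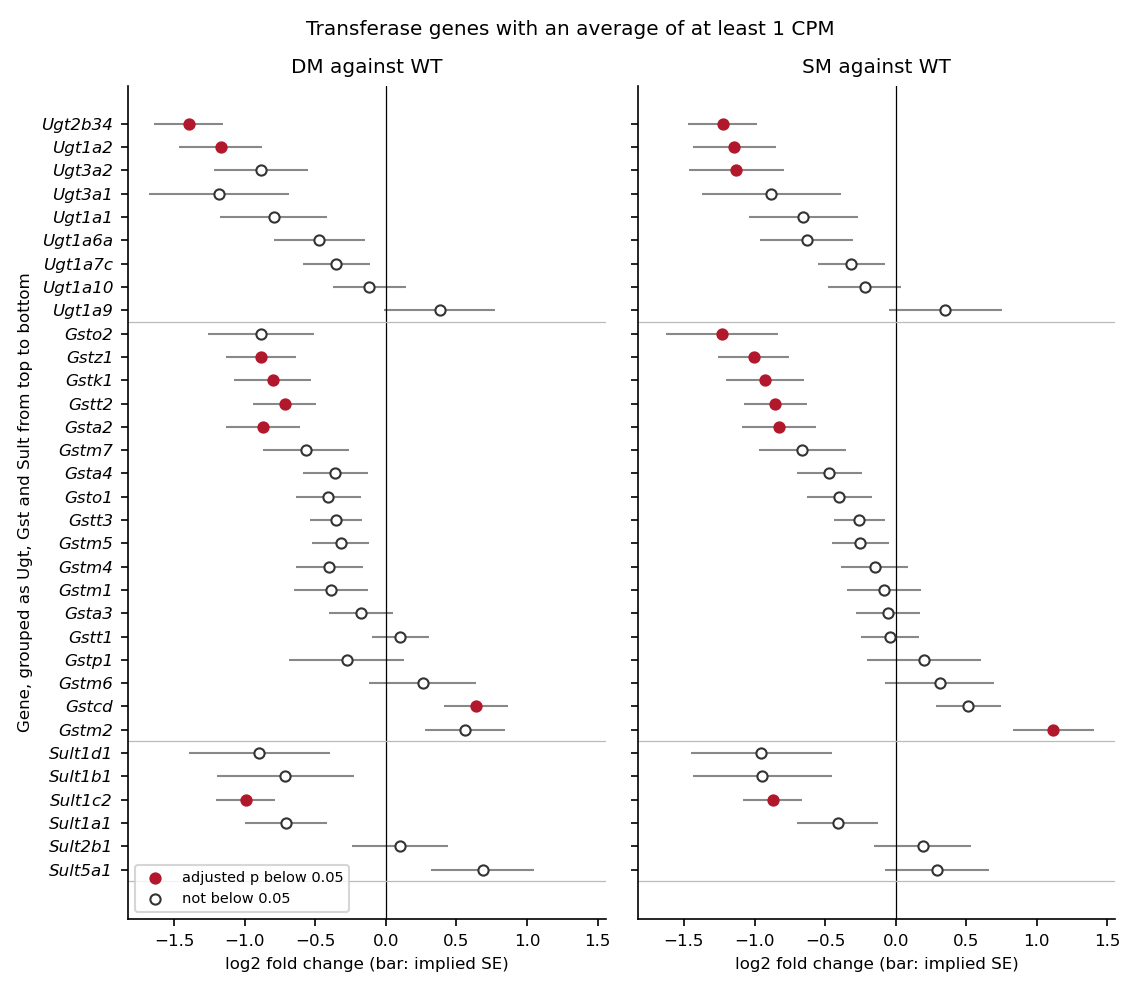
Log2 fold changes of 33 transferase genes averaging at least 1 CPM, DM against WT on the left and SM against WT on the right (bars, SE; filled, adjusted p below 0.05). Most filled points lie to the left of 0; Ugt2b38, at -8.80 in DM against WT and -8.59 in SM against WT, is off the scale and not drawn.

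Among the UGT genes, 5 of 20 were called lower in DM against WT and 5 of 20 in SM against WT, and 0 were called higher in either, nor was any higher at an unadjusted p below 0.05. Among all rows, 5.92% were called lower and 7.55% higher in DM, and 6.09% lower and 7.87% higher in SM against WT. Ugt1a2, the UGT gene with the highest average CPM, stood at 230 CPM in DM, 235 CPM in SM and 518 CPM in WT kidneys. Both mutant groups thus lay well below WT, and close to each other. Its log2 fold change in the authors' deposited tables was -1.17 (SE 0.29, adjusted p = 0.00124) in DM and -1.14 (SE 0.29, adjusted p = 0.00156) in SM against WT. Ugt2b34, of the UGT2B subfamily whose members act on steroids and bile acids, stood at 29.2 CPM in DM, 32.9 CPM in SM and 76.9 CPM in WT kidneys. Its log2 fold change in the authors' deposited tables was -1.40 (SE 0.25, adjusted p = 9.04e-07) in DM and -1.23 (SE 0.25, adjusted p = 1.98e-05) in SM against WT. It had the smallest adjusted p of the 34 genes other than Ugt2b38.

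The UGT3 enzymes use other sugars than glucuronate in human. Ugt3a2 stood at 257 CPM in DM, 217 CPM in SM and 476 CPM in WT kidneys. In the authors' deposited tables it narrowly missed the threshold in DM against WT (log2 fold change -0.89, SE 0.33, adjusted p = 0.0547) and was called in SM against WT (-1.13, SE 0.33, adjusted p = 0.00845). The direct test of DM against SM gave a log2 fold change of 0.24 (95% interval -0.44 to 0.92). Its neighbour Ugt3a1 stood at 23.7 CPM in DM, 29.1 CPM in SM and 53.6 CPM in WT kidneys and was called in neither comparison with WT, with an SE of 0.50 in DM against WT and 0.49 in SM against WT.

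The 8 Ugt1a rows lie on chromosome 1 between 88055388 and 88220002 (GRCm38) and are variants of a single locus, each with its own first exon and shared later exons. Shared exon bases made up 50.3% (Ugt1a6a) to 60.6% (Ugt1a6b) of their exon length in the GENCODE annotation. How the authors' counting divided reads over the shared exons is not given, so the split among these rows is uncertain. Only Ugt1a2 of the 8 was called. Ugt1a10, at 72.9 CPM in DM, 68.0 CPM in SM and 79.1 CPM in WT kidneys, had a log2 difference of -0.12 (SE 0.26) in DM against WT and of -0.22 (SE 0.26) in SM against WT. Ugt1a1, the bilirubin enzyme, was low, at 2.10 CPM in DM, 2.32 CPM in SM and 3.65 CPM in WT kidneys, and was not called. The other 5 rows had log2 fold changes between -0.54 and 0.38 in DM against WT and between -1.20 and 0.35 in SM against WT, none called.

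**Figure D2:**
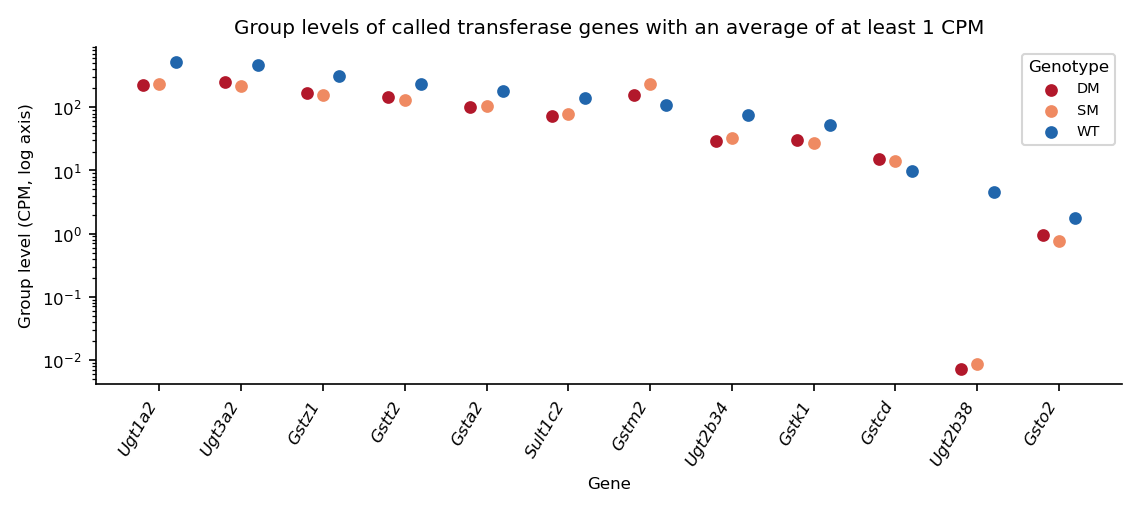
Group levels in CPM (log axis) of the 12 transferase genes averaging at least 1 CPM that were called in DM against WT or SM against WT, DM left, SM middle, WT right; the tables give no spread per mouse. The WT point is the highest in 10 genes, and the lowest in Gstm2 and Gstcd.

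Among the 22 GST genes, 4 were called lower and 2 higher in DM against WT, and 5 were called lower and 2 higher in SM against WT. The 2 called higher lay near the shares of all rows called higher, 7.55% in DM and 7.87% in SM against WT. The shares of all rows called lower were 5.92% in DM and 6.09% in SM against WT. The genes called lower came from 5 classes. Gstz1, which is also maleylacetoacetate isomerase of tyrosine breakdown, stood at 172 CPM in DM, 158 CPM in SM and 317 CPM in WT kidneys. Its log2 fold change in the authors' deposited tables was -0.88 (SE 0.25, adjusted p = 0.00528) in DM and -1.01 (SE 0.25, adjusted p = 0.00101) in SM against WT. Gstt2 of the theta class stood at 145 CPM in DM, 132 CPM in SM and 239 CPM in WT kidneys, with log2 fold changes of -0.72 (adjusted p = 0.0141) in DM and -0.85 (adjusted p = 0.00227) in SM against WT by the authors' deposited tables. Gstk1, the kappa enzyme of mitochondria and peroxisomes, stood at 30.1 CPM in DM, 27.6 CPM in SM and 52.5 CPM in WT kidneys, with log2 fold changes of -0.80 (adjusted p = 0.0308) in DM and -0.92 (adjusted p = 0.00944) in SM against WT by the authors' deposited tables. These 3 genes were lower by between 1.64-fold (Gstt2 in DM) and 2.01-fold (Gstz1 in SM). Gsto2, an omega-class enzyme that reduces dehydroascorbate, was low, at 0.967 CPM in DM, 0.759 CPM in SM and 1.79 CPM in WT kidneys. In the authors' deposited tables it was not called in DM against WT (log2 fold change -0.88, adjusted p = 0.107) and was called in SM against WT (-1.23, adjusted p = 0.0173), and DM against SM gave 0.35 (95% interval -0.47 to 1.16).

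Gstm2 of the mu class was the 1 abundant GST gene called higher in SM. It stood at 160 CPM in DM, 236 CPM in SM and 109 CPM in WT kidneys, so that DM lay between the other groups. In the authors' deposited tables its log2 fold change was 0.56 (SE 0.28, adjusted p = 0.211) in DM and 1.12 (SE 0.28, adjusted p = 0.00145) in SM against WT. Gstcd, which encodes a protein with a GST-like C-terminal domain, stood at 15.4 CPM in DM, 14.1 CPM in SM and 9.90 CPM in WT kidneys. It was called in DM against WT (log2 fold change 0.64, adjusted p = 0.0386) and not in SM against WT (0.51, adjusted p = 0.128) in the authors' deposited tables, and DM against SM gave 0.12 (95% interval -0.35 to 0.60).

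Several abundant GST genes were not called. Gstm1, the GST gene with the highest average CPM, stood at 259 CPM in DM, 320 CPM in SM and 339 CPM in WT kidneys (log2 fold change -0.39, SE 0.26, in DM and -0.08, SE 0.26, in SM against WT). Gsta4, which conjugates the lipid peroxidation product 4-hydroxynonenal, stood at 135 CPM in DM, 125 CPM in SM and 173 CPM in WT kidneys. Gsto1, the main omega enzyme, stood at 62.5 CPM in DM, 62.9 CPM in SM and 83.0 CPM in WT kidneys. Gstp1 of the pi class stood at 13.8 CPM in DM, 19.1 CPM in SM and 16.7 CPM in WT kidneys. Its row is uncertain, since 62.3% of the 50-base words of its longest transcript also occur in Gstp2. The log2 fold changes of the 15 GST genes not called in SM against WT ran down to -1.47, for Gstm3, a gene at 0.106 CPM in WT kidneys.

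The alpha-class neighbours Gsta1 and Gsta2 on chromosome 9 were called in opposite directions, and their promoters are shown because they are alike in sequence. Gsta2 stood at 101 CPM in DM, 104 CPM in SM and 184 CPM in WT kidneys, with log2 fold changes of -0.87 (SE 0.26, adjusted p = 0.0106) in DM and -0.83 (SE 0.26, adjusted p = 0.0159) in SM against WT by the authors' deposited tables. Gsta1 was rare, with 40 counts over the 3 DM, 40 over the 3 SM and 14 over the 4 WT kidneys. Its log2 fold change in the authors' deposited tables was 1.90 (SE 0.68, adjusted p = 0.0428) in DM and 1.91 (SE 0.69, adjusted p = 0.0441) in SM against WT. Both rows are uncertain. Of the 50-base words of the longest Gsta1 transcript, 89.7% occur in other genes and 82.9% in Gm3776, and of those of Gsta2, 64.2% occur in other genes and 44.8% in Gsta1. The row of Gm3776 was called in neither comparison, with log2 fold changes of 0.92 in DM and 0.34 in SM against WT by the authors' deposited tables. The RefSeq promoters (GRCm38.p6, from 250 bases before to 50 after the start) of Gsta1 at chr9:78230419-78230718 on the plus strand and of Gsta2 at chr9:78347096-78347395 on the minus strand are identical in 232 of 311 aligned columns (74.6%). The capitals mark the letters GCGTG, the core of the xenobiotic response element, which each holds at a like place:
Gsta1: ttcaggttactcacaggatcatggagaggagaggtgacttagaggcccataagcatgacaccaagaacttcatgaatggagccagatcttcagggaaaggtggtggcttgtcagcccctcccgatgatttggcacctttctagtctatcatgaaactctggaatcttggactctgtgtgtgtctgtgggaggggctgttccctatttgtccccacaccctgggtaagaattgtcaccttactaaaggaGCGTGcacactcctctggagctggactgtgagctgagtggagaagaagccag
Gsta2: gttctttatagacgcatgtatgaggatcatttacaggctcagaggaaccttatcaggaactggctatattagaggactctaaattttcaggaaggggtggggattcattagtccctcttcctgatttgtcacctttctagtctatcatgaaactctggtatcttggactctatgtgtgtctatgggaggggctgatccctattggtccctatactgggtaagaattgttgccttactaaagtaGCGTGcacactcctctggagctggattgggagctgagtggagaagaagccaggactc

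Among the 18 SULT genes, 4 were called lower and 2 higher in DM against WT, and likewise 4 lower and 2 higher in SM against WT. Over all rows, 5.92% were called lower and 7.55% higher in DM, and 6.09% lower and 7.87% higher in SM against WT. Only 6 of the 18 SULT genes averaged at least 1 CPM, and Sult1c2 was the single call among these. It belongs to the phenol-sulfating SULT1 family and stood at 71.9 CPM in DM, 78.3 CPM in SM and 143 CPM in WT kidneys. Its log2 fold change in the authors' deposited tables was -0.99 (SE 0.21, adjusted p = 5.97e-05) in DM and -0.87 (SE 0.21, adjusted p = 5.36e-04) in SM against WT. Sult1d1, which sulfates catecholamines in mouse, had the highest CPM of all 60 genes in each group, at 473 CPM in DM, 455 CPM in SM and 881 CPM in WT kidneys. In the authors' deposited tables it was not called, with -0.90 (SE 0.50) at an adjusted p of 0.278 in DM and -0.95 (SE 0.50) at an adjusted p of 0.234 in SM against WT, on the log2 scale. Its fold change was thus close to that of Sult1c2, with a larger SE.

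Sult4a1, an orphan sulfotransferase known from brain, had 96 counts over the 3 DM, 76 over the 3 SM and 22 over the 4 WT kidneys. Its log2 fold change in the authors' deposited tables was 2.53 (SE 0.53, adjusted p = 5.76e-05) in DM and 2.19 (SE 0.55, adjusted p = 0.00108) in SM against WT. Sult6b1 had 98 counts over the DM, 103 over the SM and 36 over the WT kidneys, with log2 fold changes of 1.85 (adjusted p = 0.0285) in DM and 1.93 (adjusted p = 0.0234) in SM against WT by the authors' deposited tables. Both genes rose, and both were below 1 CPM in every group. Sult2b1, which sulfates cholesterol, stood at 1.80 CPM in DM, 1.92 CPM in SM and 1.68 CPM in WT kidneys, and Sult5a1 at 5.79 CPM in DM, 4.42 CPM in SM and 3.602 CPM in WT kidneys, and neither was called. Sult3a1 had 0 counts in all 10 libraries, as had Sult2a6, Sult2a7 and Ugt2a2, which allows up to 3 counts over each group.

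Per kilobase of annotated exon, a rough scale for comparing genes, Sult1d1 led in WT kidneys, with 193 CPM per kb in DM, 185 in SM and 358 in WT kidneys. Ugt1a2 came next in WT kidneys (104 CPM per kb in DM, 106 in SM and 234 in WT), close to Gstm1 (176 in DM, 217 in SM and 230 in WT). In both mutant groups Gstm1 thus lay above Ugt1a2, and in WT kidneys the pair lay close together. Gsta2 (85.6 CPM per kb in DM, 88.2 in SM and 157 in WT) and Ugt3a2 (83.0 in DM, 70.1 in SM and 153 in WT) followed in WT kidneys. In both mutant groups Gsta4 (106 CPM per kb in DM, 98.4 in SM and 136 in WT), Gstm2 (95.3 in DM, 140.3 in SM and 64.6 in WT) and Gstm5 (88.0 in DM, 92.4 in SM and 109.9 in WT) lay above this pair. These levels carry no spread per mouse, so it was not tested which neighbours in the order differ. Of the exon bases of Ugt1a2, 59.3% are shared with other Ugt1a rows. Its level per kb and its place in the order, also against Sult1d1 and Gstm1, therefore depend on how shared reads were counted, which is not given. The row of Gsta2 is uncertain too, for the shared sequence given above.

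The largest fold changes came from genes nearly without counts in the mutant kidneys. Ugt2b38 had 1 count over the 3 DM, 1 over the 3 SM and 715 over the 4 WT kidneys. It was called in the authors' deposited tables in DM (adjusted p = 2.68e-07) and in SM (adjusted p = 6.24e-07) against WT, and the WT level per library was 536-fold that of DM and of SM, with a 95% counting interval of 95.9-fold to 21210-fold. Ugt2b36 had 2 counts in DM, 0 in SM and 43 in WT kidneys, and was at least 10.7-fold lower in SM than in WT, taking 3 counts over the SM group as the limit that 0 allows. Ugt2b1 had 0 counts in DM, 2 in SM and 32 in WT kidneys, and was at least 7.90-fold lower in DM than in WT by the same limit. In the authors' deposited tables Ugt2b36 was called in DM (adjusted p = 0.0240) and in SM (adjusted p = 0.00156) against WT, and Ugt2b1 in DM (adjusted p = 0.00599) but not in SM (adjusted p = 0.107) against WT.

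Of the SULT2A genes, whose enzymes sulfate steroids and bile acids, Sult2a1, Sult2a2, Sult2a3 and Sult2a5 were at 0 counts in the mutant kidneys and had counts in WT. Sult2a1 had 0 counts in DM, 0 in SM and 55 in WT kidneys, and was at least 13.8-fold lower in DM and in SM than in WT. Sult2a2 had 0 counts in DM, 0 in SM and 28 in WT kidneys (at least 6.95-fold lower in each mutant group than in WT). Sult2a5 had 0 counts in DM, 0 in SM and 11 in WT kidneys (at least 2.84-fold lower). In the authors' deposited tables the adjusted p in DM against WT was 7.31e-04 for Sult2a1, 0.0138 for Sult2a2 and 0.0195 for Sult2a5. In SM against WT the authors' deposited table gave 0.00162 for Sult2a1, 0.0232 for Sult2a2 and 0.0364 for Sult2a5. Sult2a3, with 0 counts in DM, 0 in SM and 4 in WT kidneys, was not called. Intervals and limits cover counting error only, and how the WT counts divide over the 4 WT kidneys cannot be seen in these tables. The rows share sequence: 37.4% of the 50-base words of Ugt2b38 and 62.1% of those of Sult2a2 occur in other genes.

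Many hepatocyte and adrenal markers were also lower in the mutant kidneys. SULT2A and several UGT2B genes are known as liver genes. For this and the adrenal list the shares among all rows serve for comparison. Of all rows, 5.92% were called lower and 7.55% higher in DM, and 6.09% lower and 7.87% higher in SM against WT. Of 35 hepatocyte markers, 19 were called lower and 3 higher in DM against WT, and 20 lower and 2 higher in SM against WT. The calls higher thus lay near those shares. Of the 35 markers, 23 averaged at least 1 CPM. Alb, the gene of serum albumin, stood at 1.03 CPM in DM, 0.324 CPM in SM and 132 CPM in WT kidneys, and Ahsg, of the plasma protein fetuin-A, at 0.205 CPM in DM, 0.0782 CPM in SM and 27.5 CPM in WT kidneys. The number of markers under 0.5 counts over the group was 4 in DM (Mug1, Mup3, Mup20 and Cyp2c70), 8 in SM (these 4 with Serpina3k, Cyp3a11, Cyp2c29 and Cyp7a1) and 1 in WT kidneys (Mup20). The summed level of the list was 328 CPM in DM, 292 CPM in SM and 411 CPM in WT kidneys, and it included the fibrinogen genes Fga (106 CPM in DM, 103 CPM in SM and 27.8 CPM in WT) and Fgg (45.0 CPM in DM, 43.0 CPM in SM and 6.97 CPM in WT), which rose. Of 10 adrenal markers, 5 were called lower in DM and 4 in SM against WT, with summed levels of 41.4 CPM in DM, 40.1 CPM in SM and 78.0 CPM in WT kidneys. Only 3 of the 10 averaged at least 1 CPM. Most of the sum was Fdx1 (average log2 CPM 5.47), which was called lower in both comparisons, so the sum says little about the other markers. Mc2r was not called, with log2 fold changes of -0.10 in DM and 0.71 in SM against WT. Under 0.5 counts were Cyp11b1 and Cyp11b2 in DM, Cyp11b2 and Nr5a1 in SM, and no marker in WT kidneys. The part of liver or adrenal RNA in the calls of the UGT2B and SULT2A genes was not tested.

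**Figure D3:**
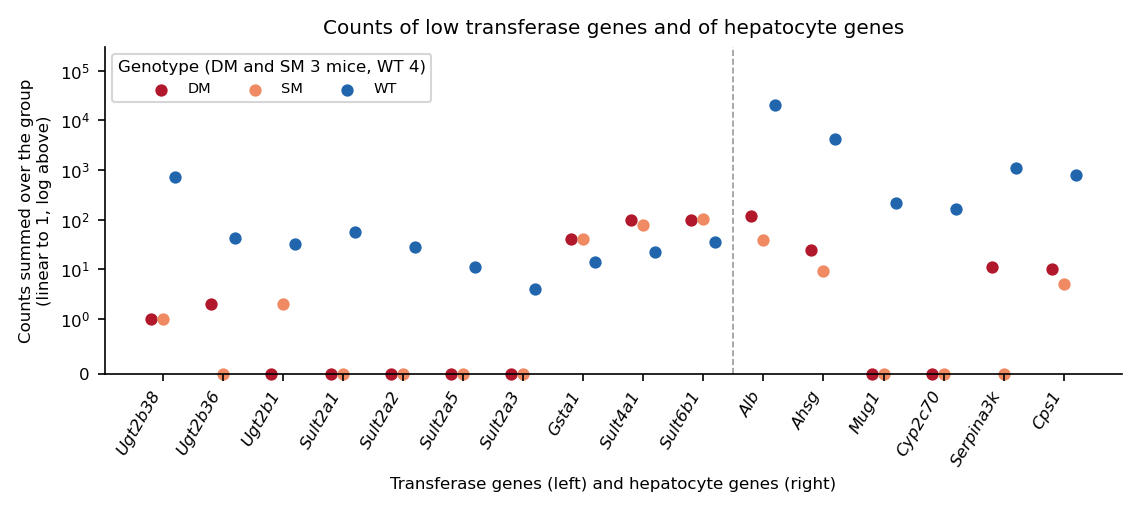
Counts summed over each group (axis linear to 1, logarithmic above; 3 DM, 3 SM and 4 WT mice) for 10 low transferase genes and, right of the dashed line, for 6 hepatocyte markers chosen for display after their values were seen. The first 7 genes and these 6 of the 35 markers lie lower in both mutant groups than in WT, the 7 with at most 2 counts in DM or SM and 4 to 715 in WT, while Gsta1, Sult4a1 and Sult6b1 lie higher in both mutant groups.

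The loss of miR-21 on top of Pkd2 deletion gave no call among the 60 genes. In DM against SM, 0 of 60 members were called by edgeR's likelihood ratio test at an adjusted p below 0.05, where 24 of 30431 rows were (0.0789%), and 0 of 60 had an unadjusted p below 0.05, where 3.75% of all rows had. The smallest unadjusted p was that of Gstm2, at 0.0689, with a log2 fold change of -0.56 (95% interval -1.16 to 0.04) in the authors' deposited table. The interval thus holds both no difference and a log2 fall by more than 1. For 26 of the 34 genes averaging at least 1 CPM the 95% interval of DM against SM lay within a log2 fold change of 1 either way. For the other 8 it reached further: Gstm2, Gsto2, Gstp1, Sult1b1, Sult1d1, Sult5a1, Ugt3a1 and Ugt2b38. For Ugt1a2 the interval was -0.62 to 0.57, for Ugt2b34 -0.67 to 0.33, for Gstz1 -0.39 to 0.63 and for Sult1c2 -0.55 to 0.30. A p that misses the threshold does not show that the groups are alike, and these intervals give the differences that the 3 DM and 3 SM kidneys leave possible.

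The RNA that DM mice lack is shown with its seed, bases 2 to 8, in capitals, since the seed guides its pairing with target messages (RefSeq, GRCm38.p6, chr11:86584120-86584141, minus strand):
mmu-miR-21a-5p: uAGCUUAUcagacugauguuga
The seed match ATAAGCT occurred in the longest annotated 3′ UTR of 0 of the 60 transferase genes, where 1483 of 18940 measured genes held it (7.83%). The UTRs of the 60 genes were short, with a median of 543 bases against 1140 bases for all measured genes, and the share was not adjusted for length. The search says only that these letters are not in these windows.

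Called and uncalled genes stood side by side in several gene clusters. Over all 60 members, 21.7% were called lower and 6.67% higher in DM, and 23.3% lower and 6.67% higher in SM against WT. Over all rows, 5.92% were called lower and 7.55% higher in DM, and 6.09% lower and 7.87% higher in SM. Most members were thus not called, so a mix within a cluster says little about that cluster. The 13 genes of the Ugt2 and Sult1 cluster on chromosome 5 (86889767 to 87591594, GRCm38) held 4 calls in DM and 3 in SM against WT, all lower. Of the 4 genes there averaging at least 1 CPM, Ugt2b34 and Ugt2b38 were called, and Sult1d1 and Sult1b1 (6.78 CPM in DM, 5.78 CPM in SM and 11.1 CPM in WT kidneys) were not. The remaining genes of this cluster averaged below 1 CPM, where a missing call says little. Of the 7 Gstm genes on chromosome 3, 0 were called in DM and 1, Gstm2, in SM against WT. Of the 4 Gstt genes on chromosome 10, 1 was called in each comparison, Gstt2, whereas its neighbour Gstt1 stood at 91.3 CPM in DM, 82.7 CPM in SM and 85.1 CPM in WT kidneys. No test was made of whether neighbours differ from each other.

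**Figure D4:**
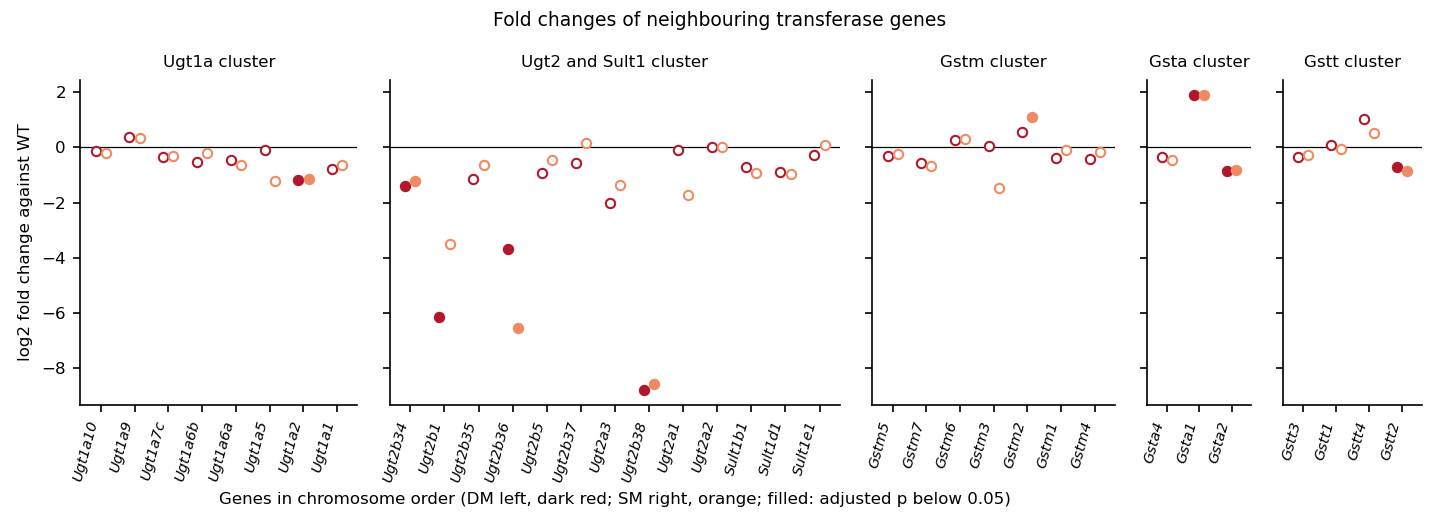
Log2 fold changes against WT of transferase genes in 5 gene clusters, in chromosome order (dark red, DM; orange, SM; filled, adjusted p below 0.05). Called and uncalled genes stand side by side, and in the Gsta cluster Gsta1 lies near 1.90 and Gsta2 near -0.87 in DM.

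Of the motifs searched, those of NRF2 and of the aryl hydrocarbon receptor, regulators known to act on detoxification genes, are given; both strands were searched in the RefSeq promoters (GRCm38.p6), which 52 of the 60 genes had. The antioxidant response element core TGACNNNGC, bound by NRF2, occurred in 3 of 52 genes (5.77%) and in 14.0% of 27025 genes with a promoter. The xenobiotic response element core GCGTG, bound by the aryl hydrocarbon receptor, occurred in 10 of 52 (19.2%) and in 35.2% of all, and its first letters can overlap the last letters of the NRF2 core. Of the 10 genes called lower in SM against WT that had a promoter, 0 held the NRF2 core and 1 the aryl hydrocarbon receptor core (Gsta2). A match is a description of the sequence and not a site of binding. The shares were not adjusted for base composition. Sequence outside the windows, from 250 bases before to 50 after the start, was not searched.

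Genes that supply the conjugated groups were counted by pathway, and no difference between pathways was tested. The counts of this and the following lists stand beside the shares among all rows averaging at least 1 CPM. Of those rows, 11.3% were called higher and 8.53% lower in DM, and 12.2% higher and 9.47% lower in SM against WT. Most genes of each list reach that level. For glutathione synthesis and its precursors, 5 of 12 genes were called lower in DM and 6 in SM against WT, and 0 higher, with median log2 fold changes of -0.59 in DM and -0.58 in SM. Cbs, the first enzyme from homocysteine to cysteine, stood at 18.96 CPM in DM, 17.7 CPM in SM and 39.6 CPM in WT kidneys, Ahcy, which releases homocysteine, at 177 CPM in DM, 200 CPM in SM and 386 CPM in WT kidneys, and Gss, glutathione synthetase, at 151 CPM in DM, 153 CPM in SM and 233 CPM in WT kidneys. Slc7a9, a cystine transporter of the proximal tubule, stood at 61.4 CPM in DM, 63.0 CPM in SM and 107 CPM in WT kidneys. All 4 were called in both comparisons with WT. Gclc and Gclm, the subunits of the rate-limiting enzyme, were named after their values were seen: Gclc stood at 230 CPM in DM, 257 CPM in SM and 209 CPM in WT kidneys and Gclm at 169 CPM in DM, 180 CPM in SM and 238 CPM in WT kidneys, and neither was called.

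For sulfate supply, 1 of 11 genes was called higher and 3 lower in DM against WT, and 2 higher and 3 lower in SM against WT. In DM the share called higher lay near the 11.3% of all rows averaging at least 1 CPM. Papss2, which makes PAPS, stood at 181 CPM in DM, 205 CPM in SM and 465 CPM in WT kidneys (adjusted p = 2.41e-07 in DM and 9.07e-06 in SM against WT by the authors' deposited tables). Papss1, the other PAPS synthase gene of the list, was named after its values were seen. It was not called, with log2 fold changes of -0.09 in DM and 0.01 in SM at an average log2 CPM of 6.96. Bpnt1, which degrades the spent carrier, stood at 114 CPM in DM, 123 CPM in SM and 281 CPM in WT kidneys, and Suox, sulfite oxidase, at 43.8 CPM in DM, 44.5 CPM in SM and 86.0 CPM in WT kidneys, both called in both comparisons. The sulfate transporter Slc26a2 went the other way, with 36.1 CPM in DM, 43.1 CPM in SM and 21.1 CPM in WT kidneys (adjusted p = 7.98e-04 in DM and 2.14e-06 in SM against WT by the authors' deposited tables). For UDP-glucuronate supply, 1 of 8 genes was called lower in each comparison, the phosphoglucomutase gene Pgm2 in DM (log2 fold change -0.62) and Slc35d1, a UDP-glucuronate carrier of the endoplasmic reticulum, in SM (-0.68), in the authors' deposited tables. A single call in 8 genes lay near the share called lower among all rows averaging at least 1 CPM (8.53% in DM and 9.47% in SM). Of the pair Hpse and Gusb, which cleave glucuronides in glycans, 1 was called higher in DM (Hpse, 2.85 CPM in DM, 2.64 CPM in SM and 0.939 CPM in WT kidneys) and both in SM. Of 5 genes of sulfate removal, 1 was called lower in DM (Arsb) and 0 of 5 in SM against WT, where 0 also had an unadjusted p below 0.05.

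Downstream of conjugation, 1 of 22 genes of glutathione breakdown and mercapturate formation was called higher and 9 lower in DM against WT, and 2 higher and 11 lower in SM, with median log2 fold changes of -0.73 in DM and -0.66 in SM. Cml1, of the Nat8 family to which the mercapturate-forming N-acetyltransferase belongs, stood at 91.9 CPM in DM, 72.6 CPM in SM and 364 CPM in WT kidneys. The aminoacylase Acy3, which removes the acetyl group from mercapturates, stood at 131 CPM in DM, 117 CPM in SM and 260 CPM in WT kidneys, and Acy1 at 161 CPM in DM, 97.6 CPM in SM and 282 CPM in WT kidneys. The dipeptidase Dpep2 rose, at 0.821 CPM in DM, 1.20 CPM in SM and 0.255 CPM in WT kidneys. Among 14 transporters of conjugates and organic anions, 0 were called higher and 7 lower in DM, and 1 higher and 6 lower in SM against WT. The basolateral anion carriers Slc22a6 (141 CPM in DM, 124 CPM in SM and 397 CPM in WT) and Slc22a8 (176 CPM in DM, 156 CPM in SM and 455 CPM in WT) fell in both, as did Slc17a3 and the drug exporter Abcb1b.

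Of 13 genes of other conjugation reactions, 1 was called higher and 4 lower in DM, and 1 higher and 6 lower in SM against WT, with median log2 fold changes of -0.71 in DM and -0.54 in SM. Acsm2, which activates benzoate for glycine conjugation, stood at 334 CPM in DM, 490 CPM in SM and 1315 CPM in WT kidneys. The methyltransferase Inmt stood at 8.84 CPM in DM, 1.58 CPM in SM and 18.8 CPM in WT kidneys and was called in SM against WT. Of 6 membrane-bound GST-like genes, Alox5ap, which presents arachidonate in leukocytes, rose (8.85 CPM in DM, 10.03 CPM in SM and 2.34 CPM in WT) and Mgst3 fell (128 CPM in DM, 120 CPM in SM and 225 CPM in WT), each in both comparisons.

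Regulators were read against the rows averaging at least 1 CPM, of which 11.3% were called higher and 8.53% lower in DM, and 12.2% higher and 9.47% lower in SM against WT. Of 15 NRF2 targets, 14 of which averaged at least 1 CPM, 2 were called higher and 1 lower in DM, and 3 higher and 1 lower in SM against WT, with median log2 fold changes of 0.07 in DM and -0.11 in SM, so that the counts in DM lay near those shares. Hmox1, heme oxygenase, rose (36.2 CPM in DM, 57.1 CPM in SM and 18.0 CPM in WT), as did Akr1b8 (12.8 CPM in DM, 17.9 CPM in SM and 5.04 CPM in WT), and Osgin1 fell (33.1 CPM in DM, 31.2 CPM in SM and 75.9 CPM in WT). Nqo1, the usual readout of NRF2, stood at 52.9 CPM in DM, 53.9 CPM in SM and 79.0 CPM in WT kidneys and was not called, nor was the NRF2 gene Nfe2l2 (168 CPM in DM, 175 CPM in SM and 145 CPM in WT). Of 21 genes of transcriptional regulators, 2 were called higher and 5 lower in DM, and 1 higher and 6 lower in SM against WT. The aryl hydrocarbon receptor gene Ahr rose, at 22.9 CPM in DM, 23.8 CPM in SM and 15.2 CPM in WT kidneys, with log2 fold changes of 0.59 (adjusted p = 0.0423) in DM and 0.64 (adjusted p = 0.0234) in SM against WT by the authors' deposited tables. The estrogen receptor gene Esr1 fell in both comparisons (18.9 CPM in DM, 17.4 CPM in SM and 29.8 CPM in WT), and Cebpb was called higher in DM against WT (42.4 CPM in DM, 28.2 CPM in SM and 23.7 CPM in WT).

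Proximal tubule markers were lower in the mutant kidneys, like most called transferase genes, whereas injury, macrophage and principal cell markers were mostly higher. Of 26 proximal tubule markers, 21 were called lower in DM and 20 in SM against WT and 0 higher, with median log2 fold changes of -1.05 in DM and -1.18 in SM. Their summed level was 16793 CPM in DM, 15173 CPM in SM and 35007 CPM in WT kidneys, and none was at 0. Of 13 tubular injury markers, 13 were called higher in DM and 13 in SM (summed 9571 CPM in DM, 10207 CPM in SM and 2668 CPM in WT), and of 13 macrophage markers 12 in DM and 13 in SM (summed 542 CPM in DM, 541 CPM in SM and 145 CPM in WT). Of 12 principal cell markers, 6 were called higher in DM and 10 in SM (summed 1881 CPM in DM, 2158 CPM in SM and 1215 CPM in WT). The keratin gene Krt18 stands in this list and in that of injury. The water channel genes Aqp2 and Aqp3 were the 2 of the 12 with negative log2 fold changes, and neither was called. Aqp2 was at -0.06 in DM and -0.28 in SM, and Aqp3 at -0.11 in DM and -0.27 in SM against WT. Of 9 adipocyte markers, 0 were called in DM (2 at an unadjusted p below 0.05 by edgeR's likelihood ratio test) and 1 lower in SM. Of 5 sex-linked genes, 0 were called in either comparison, although Xist stood at 397 CPM in DM, 686 CPM in SM and 812 CPM in WT kidneys, with SE between 1.51 and 1.91 for the 5 genes. At an unadjusted p below 0.05, 0 of the 5 passed in either comparison. In DM against SM, 0 of the 240 genes in the pathway and marker lists were called by edgeR's likelihood ratio test, and 12 had an unadjusted p below 0.05. At that unadjusted threshold, 3.75% of all rows passed, and 456 of the 15135 rows averaging at least 1 CPM. Some genes stand in several lists, among them Slc22a6, Slc22a8 and Slc17a3, which count both as transporters and as proximal tubule markers. The falls of both lists are thus partly those of the same genes. The part of the proximal tubule content in the lower transferase levels was not tested.

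**Figure D5:**
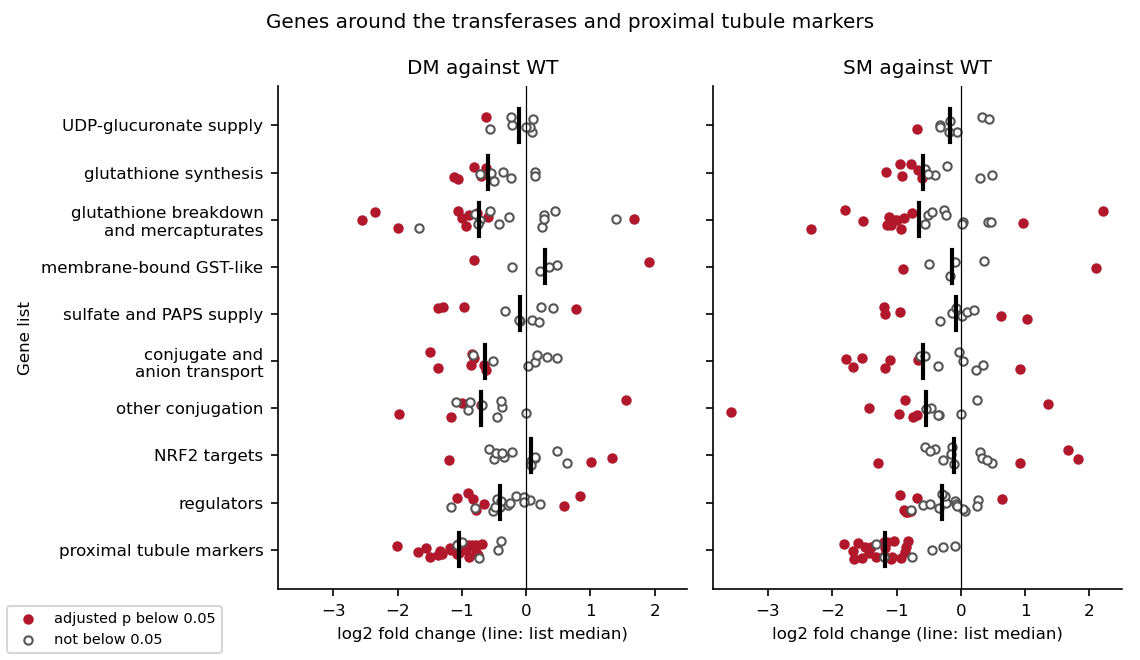
Log2 fold changes of the genes of 9 pathway lists and of the proximal tubule markers, DM against WT on the left and SM against WT on the right (filled, adjusted p below 0.05; black line, list median; heights within a list are random). The medians of the proximal tubule markers lie at -1.05 in DM and -1.18 in SM. Those of the 9 pathway lists lie between -0.73 and 0.29 in DM. Not drawn are glucuronide cleavage (2 genes, median 1.04 in DM) and sulfate removal (5 measured genes, median 0.04 in DM). Slc22a6, Slc22a8 and Slc17a3 are drawn both among the transporters and among the proximal tubule markers.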

How the data were processed

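RNA of frozen whole kidneys was extracted by miRNeasy and sequenced as 10 stranded total RNA libraries, according to the labels' protocols. For the authors' work on build mm10, the submitters' processing notes list edgeR 3.2.4, Subread 1.4.6, featureCounts, Cufflinks, TopHat2 2.0.12 and bcl2fastq 1.8.4, without the role of each. The authors deposited 3 tables of comparisons. Per the file headers, their deposited columns are an average log2 CPM, the log2 fold change, the likelihood ratio score with its p-value, and a false discovery rate. Tests on the files showed 1 fit of all 10 libraries, p as the chi-square tail of the score, and adjustment by Benjamini-Hochberg over all 30431 rows, with no filter on low values. Values per library were not analysed here, so the main test is the authors' own, and replicates could not be compared or left out. Each library title carries its own number, taken here as that of a mouse. The p-values come from the 1 fit of all 10 libraries, and how that fit set the spread of each gene between libraries is not given.

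Computed from these were the implied SE, 95% intervals from it, group levels and counts (Python 3.11.15, pandas 2.3.3, numpy 2.4.6, scipy 1.17.1). Counts used a prior count of 2 for the average and 0.125 for the fit. These settings are inferred from the values: of 1854 rows with 1 to 10 counts in total, 96.8% lay within 0.2 of a whole count. The step was tested on simulated data. Exon lengths, positions and 3′ UTRs came from GENCODE on GRCm38, which may differ from the authors' assembled transcripts. Named were all called members, the most abundant member of each family, and up to 4 genes of each pathway list with the smallest adjusted p, with Nfe2l2, Ahr and Nqo1; a few genes that this rule names, and a motif that was searched, are not reported here. Members, 11 pathway lists and 8 marker lists were chosen with earlier results of these data known. Alternatives were the threshold, the rows adjusted over, a minimum fold, recentring, the reading of the average, and members of at least 1 CPM only.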

Additional observations from a re-analysis of the deposited data

How the results depend on the processing

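No result changed sign under the alternatives run. Recentring (median shifts of 0.002 in DM and -0.01 in SM against WT, and 0.001 in DM against SM) and adjustment over named rows moved no call. The 17 calls in DM against WT became 8 at a threshold of 0.01, 10 when adjusted over rows of at least 1 CPM, 11 with an absolute log2 fold change of at least 1, and 9 among members of at least 1 CPM, the last an alternative chosen after seeing the data. Of these, calls lower, 13 in all, became 7 at 0.01, 8 with the minimum fold and 8 among members of at least 1 CPM, and calls higher, 4 in all, became 1 at 0.01, 1 when adjusted over rows of at least 1 CPM and 1 among members of at least 1 CPM. The 18 calls in SM against WT became 11 when adjusted over rows of at least 1 CPM and 11 among members of at least 1 CPM, and the 4 higher became 2 at 0.01, 1 when adjusted over rows of at least 1 CPM and 1 among members of at least 1 CPM. Smaller changes of a count are not listed. In SM against WT the threshold of 0.01 also dropped Gsta1, Gsta2, Gsto2, Sult2a2, Sult2a5 and Sult6b1. The minimum fold dropped Gsta2, Gstk1, Gstt2 and Sult1c2 there. Adjustment over rows of at least 1 CPM drops the low genes and brought Ugt3a2 in DM against WT to an adjusted p of 0.0372. Reading the deposited average as a mean of log2 values set Ugt2b38 in WT at 70.4 CPM instead of 4.59 CPM. No paired analysis was made, since the labels give no pairing or litter, and no replicate could be left out. For genes below 1 CPM, depth limits the fold changes to counting limits.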
